A study of Mus musculus with 8 samples.

Results

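Cytosolic ribosomes are built from a small and a large subunit, each a ribosomal RNA scaffold clad with proteins that are, with few exceptions, encoded by a single functional gene each. The mRNAs of these proteins are short and abundant, and many begin with a stretch of pyrimidines at the 5′ end (a TOP motif), through which growth signals such as mTORC1 control their translation together. In liver, an organ that exports large amounts of plasma protein, they supply a large pool of ribosomes. The genes examined here were chosen by symbol alone: those named Rpl or Rps followed by a number, with or without the letter a or x, together with Rplp0, Rplp1, Rplp2, Rpsa and Rps3a1. Rps18 and Rps28 were left out by that rule, as were Fau and Rack1, whose symbols differ. The rule found 75 genes among 24674 lines with a symbol, 29 of the small and 46 of the large subunit. All 75 of 75 had at least 10 normalized reads in at least 4 libraries and were among the 14390 genes tested, and their single values ran from 34.1 to 18962 normalized reads.

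Liver RNA came from 8 female mice, 4 in each of 2 groups. WT animals had wild-type ancestors only. F2_outcross animals were genetically wild type as well, but their mother's mother was null for Khdc3, a gene of the oocyte, and the comparison asks whether that ancestry leaves a trace in the liver transcriptome. The sources used here name no age, strain, litter, diet or batch for the animals. The p-values set the difference between the groups against the spread within the groups of these 8 samples only. A difference of litter or batch between the groups cannot be told from them. Libraries held 28028650 to 35843972 reads on the lines of the table. The labels call the material liver and the cell type hepatocyte. The 7 hepatocyte markers in the table summed to between 3157292 and 4642134 normalized reads, but markers of Kupffer cells, the resident macrophages, were present too and summed to between 15592 and 40883, so the RNA held other cell types of the organ. In such bulk RNA, fewer cells of a type and less RNA per cell cannot be told apart.

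Start-site windows are shown for 10 of the genes that the results turn on, to set the pyrimidine stretches beside the fold changes. Each window runs from 35 bases before the RefSeq transcript start to 25 bases from it, on the transcribed strand of GRCm38.p6, and capitals mark the longest unbroken stretch of C and T.
Rps12, chr10:23787185-23787244, minus strand: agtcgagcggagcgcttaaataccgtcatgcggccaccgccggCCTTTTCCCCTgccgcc
Rps24, chr14:24490643-24490702, plus strand: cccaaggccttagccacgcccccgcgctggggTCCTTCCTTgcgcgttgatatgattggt
Rpl26, chr11:68901531-68901590, plus strand: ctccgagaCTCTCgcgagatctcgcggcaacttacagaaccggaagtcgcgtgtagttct
Rps19, chr7:24884557-24884616, plus strand: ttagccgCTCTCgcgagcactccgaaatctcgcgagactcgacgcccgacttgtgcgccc
Rps2, chr17:24720028-24720087, plus strand: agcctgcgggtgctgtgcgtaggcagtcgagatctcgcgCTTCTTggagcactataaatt
Rpl4, chr9:64173352-64173411, plus strand: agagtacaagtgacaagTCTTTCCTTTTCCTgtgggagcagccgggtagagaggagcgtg
Rpl7a, chr2:26910772-26910831, plus strand: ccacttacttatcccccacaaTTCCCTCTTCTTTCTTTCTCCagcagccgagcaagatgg
Rplp2, chr7:141447616-141447675, plus strand: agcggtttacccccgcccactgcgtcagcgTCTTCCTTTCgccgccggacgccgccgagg
Rpl5, chr5:107900493-107900552, plus strand: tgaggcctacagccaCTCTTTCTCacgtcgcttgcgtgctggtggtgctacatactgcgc
Rpl11, chr4:136053369-136053428, minus strand: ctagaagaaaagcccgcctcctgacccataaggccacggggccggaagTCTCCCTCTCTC
A RefSeq window was matched for 55 of the 75 genes. A C and T stretch of at least 8 bases lay in 28 of these 55 windows, or 50.9%, against 22.0% of 10386 other tested genes, and the median longest stretch was 8 bases against 5. A stretch was counted anywhere in the window, before or after the start, so it need not be a TOP motif. It began 18 bases before the annotated start in Rpl4 and 20 before it in Rpl5, but 8 bases after it in Rps12 and 13 after it in Rpl11. Rpl7a, with the smallest spread over libraries of all 75 genes, carried a stretch of 21 bases and Rpl4 one of 14. Among the 6 genes with the most negative fold changes, Rps12 and Rps24 had stretches of 11 and 9 bases, and Rpl26 and Rps19 stretches of 5. Long stretches also lay in Rpl35 (18 bases) and Rps25 (14 bases), each with a log2 fold change of -0.45. A relation of stretch length to fold change or spread was not tested. In the wider window from 250 bases before to 50 bases after the start, CTCTTT on the transcribed strand was found in 40.0% of the members and 10.4% of the others. TTCCGG, part of the site of ETS-family factors, was found on either strand in 50.9% and 27.7%, and GGGCGG, the core of the GC box, in 61.8% and 62.5%. AAGATGG, part of a site of the factor YY1, was found on either strand in 14.5% and 7.16%, and TATAAA on the transcribed strand in 7.27% and 4.74%. These matches describe letters in the windows and not binding.

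The genes themselves are compact, with a median exonic length of 775 bases for the principal transcript against 2837 bases for other tested protein-coding genes. Of the 75 genes, 30 (40.0%) enclosed at least 1 annotated small nucleolar RNA gene on the same strand, 58 such genes in all, against 1.39% of other tested protein-coding genes. Rpl4 enclosed 5 of them, Rpl13a 4 and Rps12 3.

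Levels per kb of exonic length spanned a wide range, although the ribosome holds most of its proteins in equal numbers. Over the 8 libraries the median of the 75 genes was 3972 normalized reads per kb, against 153 for other tested protein-coding genes, and 65 of the 75 lay above the 90th percentile of those others, 1403. The genes at the 90th and 10th percentiles of the 75 differed 8.25-fold. Rplp1, an acidic protein of the stalk that recruits translation factors, had the highest level, at 13928 ± 2014 normalized reads per kb in WT against 12724 ± 2555 in F2_outcross (mean ± SD over the 4 animals of a group). Rps15 followed with 13765 ± 2578 in WT and Rpl32 with 12565 ± 1587 normalized reads per kb, and these neighbours in the order differed by less than their SDs. Rpl4, which lines the peptide exit tunnel, was at rank 5 with 10878 ± 1370. When all annotated exons of a gene were counted as its length, Rplp1 remained highest, Rpl4 moved to rank 2, Rps15 to rank 4 and Rpl32 to rank 15.

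The 5 lowest levels per kb were those of Rpl24, Rps15a, Rpl13a, Rpl17 and Rpl29. Rpl29, a large subunit protein first described as a heparin-binding cell surface protein, had 83.0 ± 12.3 normalized reads per kb in WT and 54.6 ± 8.02 in F2_outcross. Rpl17, at the exit of the peptide tunnel, had 454.75 ± 140 and 314 ± 69.6, and Rpl13a, which in human myeloid cells also blocks translation of selected inflammatory mRNAs, had 455 ± 53.0 and 400 ± 63.7. Rps15a had 491 ± 56.8 and 374 ± 43.2, but the transcript chosen for it was 5130 bases long, the longest of the 75, so its level per kb depends on that choice. Rpl24, a factor in joining the subunits, had 741 ± 129 and 571 ± 36.4. Ribosomal protein genes have many processed pseudogenes, and a gene with close copies can lose reads to them. Of the 75, 56 had at least 1 line in the table named as their pseudogene, and in 25 those lines held over 10% as many reads as the gene itself in WT. For Rpl17 they held 184.5% as many, so its level is uncertain, and for Rpl29 8.75%. These shares leave out copies under other names, so a low share, as for Rpl29, does not show that a level is secure.

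**Figure D1:**
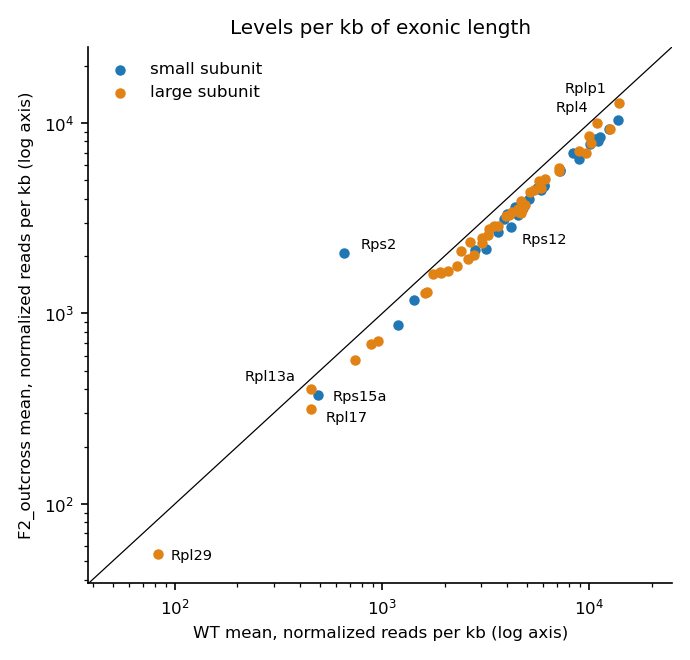
Mean normalized reads per kb of exonic length in WT (horizontal, log axis) and F2_outcross (vertical, log axis) for the 75 genes, 1 point per gene, blue for the small and orange for the large subunit, with a line where both are equal. All points but Rps2 lie below the line of equal levels, from Rpl29 at 83.0 in WT to Rplp1 at 13928.

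Nearly all ribosomal protein mRNAs had lower mean levels in F2_outcross than in WT livers, by a small amount that took a single gene past the test. In 74 of the 75 genes the log2 fold change (F2_outcross minus WT) was negative, where 51.1% of all tested genes had a negative value, and the median was -0.35, 21.3% lower, where the median of all tested genes was -0.01. Values ran from -0.59 (Rpl29) to -0.11 (Rpl4) apart from Rps2 at 1.39. Only Rps12 passed the test (limma, Benjamini-Hochberg adjusted p under 0.05 over all 14390 genes), so 1 of 75 fell, 0 rose and 74 did not pass, where 1.06% of all tested genes were called lower and 2.66% were called in either direction. At an adjusted p under 0.10, 25 were lower, where 3.68% of all genes were, and at an unadjusted p under 0.05, 57 were lower, 76.0% of the 75, where 11.0% of all genes were. In 26 of the 75 genes all 4 F2_outcross values lay below all 4 WT values, against 5.45% of all tested genes, and in 0 of the 75 all 4 lay above, against 6.50%. The 75 genes moved together across libraries, as described further on, so they are not 75 separate observations.

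The 4 libraries of each group were not alike. The members' mean log2 level, set against the WT mean of each gene, was 0.22 in WT replicate 1, -0.03 in WT replicate 2, -0.11 in WT replicate 3 and -0.09 in WT replicate 4. It was -0.34, -0.12, -0.45 and -0.37 in F2_outcross replicates 1 to 4. WT replicate 1 thus stood above the other 3 WT libraries, with the highest of the 8 values for 62 of the 75 genes. F2_outcross replicate 2 lay close to WT replicates 3 and 4, and among F2_outcross libraries it had the highest value for 68 genes, while F2_outcross replicate 3 had the lowest of all 8 values for 58. The median log2 fold change of the 75 genes was -0.28 without WT replicate 1. It was -0.41 without F2_outcross replicate 2 and -0.29 without F2_outcross replicate 3. No member passed without WT replicate 1, 3 or 4 or F2_outcross replicate 1 or 3. In those fits 120 to 346 of all 14390 tested genes passed, where 383 did with all 8 libraries. The members took 1.06 ± 0.128% of all reads in WT against 0.834 ± 0.0603% in F2_outcross (mean ± SD over the 4 animals of a group). By library that share was 1.25%, 1.01%, 0.964% and 1.02% in WT and 0.820%, 0.921%, 0.815% and 0.781% in F2_outcross, so the groups did not overlap.

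**Figure D2:**
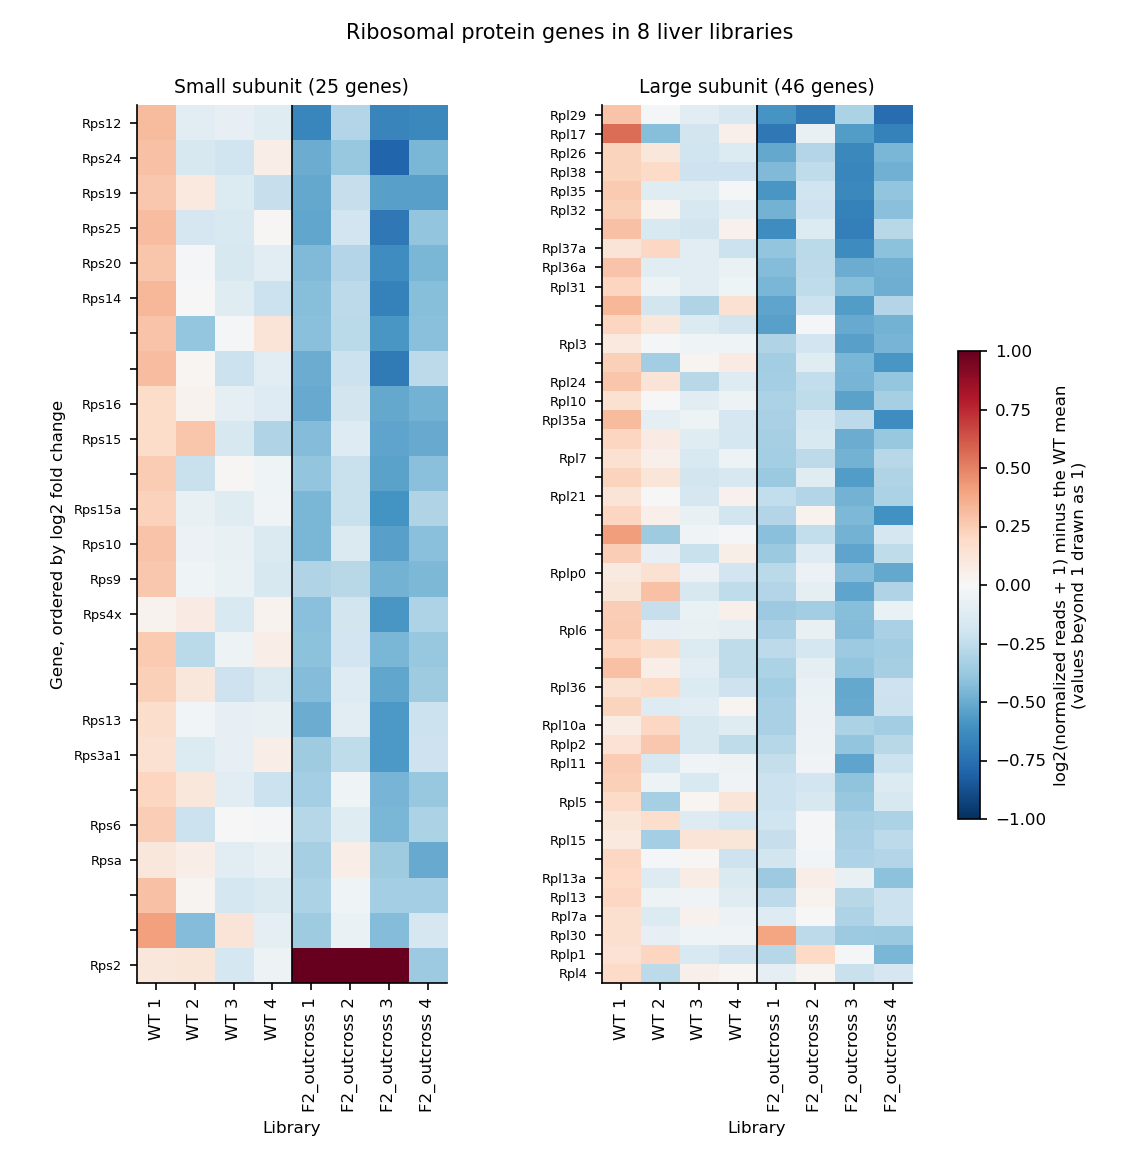
Log2(normalized reads + 1) of each gene minus its WT mean (colour, red higher and blue lower, with values beyond 1 drawn as 1) in the 8 libraries (columns), for 25 small and 46 large subunit genes ordered by log2 fold change, with genes described in the text labelled. WT replicate 1 is the reddest column and F2_outcross replicate 3 the bluest, and Rps2 stands apart in F2_outcross replicates 1 to 3.

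Among small subunit proteins, Rps12, a protein of the beak of the small subunit (chromosome 10, 23785183 to 23787275), had 2565, 1899, 1940 and 1887 normalized reads in WT replicates 1 to 4 and 1309, 1676, 1300 and 1314 in F2_outcross replicates 1 to 4. All F2_outcross values lay below all WT values, with WT replicate 1 high and F2_outcross replicate 2 nearest to WT. The log2 fold change of Rps12 was -0.56 ± 0.13 (SE, 4 animals a group; limma adjusted p = 0.0397). That call was lost in 6 of the 8 fits that left out 1 library (WT replicates 1, 3 and 4 and F2_outcross replicates 1, 3 and 4), where the adjusted p reached 0.112. It passed without F2_outcross replicate 2 and without WT replicate 2. In the fit without WT replicate 2, 12 of the 75 members fell, where 576 of all 14390 tested genes did. Without F2_outcross replicate 4, Rps2 passed in place of Rps12.

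Rps24, whose human counterpart is mutated in Diamond-Blackfan anaemia, had 6181, 4518, 4406 and 5277 normalized reads in WT and 3580, 3885, 2910 and 3675 in F2_outcross, again without overlap (log2 fold change -0.53 ± 0.13, limma adjusted p = 0.0547, not past the threshold). Rps19, the gene most often mutated in that anaemia in humans, had 4193, 3714, 3151 and 2953 in WT and 2428, 2953, 2387 and 2379 in F2_outcross. WT replicate 4 and F2_outcross replicate 2 met at the same level there, and the difference did not pass (log2 fold change -0.46 ± 0.13, limma adjusted p = 0.0752). The other small subunit genes whose groups did not overlap included Rps25, which some viral internal ribosome entry sites need, Rps20, Rps14, Rps16, Rps15a, Rps9, Rps4x, Rps13 and Rps3a1, with log2 fold changes between -0.45 and -0.35. Rps6, the substrate of S6 kinase, did not pass and had 3986, 2900, 3352 and 3318 normalized reads in WT and 2769, 3094, 2451 and 2702 in F2_outcross, which overlap. In all, 13 of 29 small subunit genes were lower in F2_outcross without overlap of the groups, where 5.45% of all tested genes were. The median log2 fold change of the 29 was -0.38.

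The median of the 46 large subunit genes was -0.32. In 13 of them the groups did not overlap, with F2_outcross lower, as in 5.45% of all tested genes. Rpl26, beside the peptide exit tunnel (chromosome 11, 68901583 to 68906989), had 5888, 5478, 4405 and 4596 normalized reads in WT and 3550, 4122, 3225 and 3691 in F2_outcross (a log2 fold change of -0.48 ± 0.12, limma adjusted p = 0.0577). Rpl29 had the most negative log2 fold change of all 75, -0.59 ± 0.20 (adjusted p = 0.121), from 71.6, 57.6, 54.3 and 52.3 normalized reads in WT to 38.6, 35.5, 46.8 and 34.1 in F2_outcross. Both genes were lower in every F2_outcross library than in any WT library, and neither passed the threshold. Rpl17 had 504, 254, 300 and 353 in WT and 207, 323, 231 and 213 in F2_outcross, with overlapping groups (log2 fold change -0.51 ± 0.21, adjusted p = 0.189). The others whose groups did not overlap were Rpl38, whose loss alters the body axis of mice, Rpl35, Rpl32, Rpl37a, Rpl36a, Rpl31, Rpl3, which lies near the peptidyl transferase centre, Rpl10, Rpl35a, Rpl7 and Rpl21, with log2 fold changes between -0.46 and -0.33.

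At the other end of the order, Rpl4 (log2 fold change -0.11 ± 0.12, limma adjusted p = 0.644), Rplp1 (-0.14 ± 0.15, adjusted p = 0.640), Rpl30 (-0.15 ± 0.16, adjusted p = 0.630), Rpl7a (-0.16 ± 0.10, adjusted p = 0.400) and Rpl13 (-0.18 ± 0.11, adjusted p = 0.367) had the values closest to 0 and did not pass. Rpl4, the member with the most reads, had 18962, 13885, 17193 and 16879 normalized reads in WT and 15591, 16954, 14279 and 14792 in F2_outcross, so the groups overlapped widely. Rpl30, whose yeast counterpart binds its own transcript, had 1110, 939, 969 and 974 in WT and 1307, 829, 776 and 770 in F2_outcross. F2_outcross replicate 1 held the highest of its 8 values and the other 3 the lowest. Rpl7a, Rpl4 and Rpl13 also had the 3 smallest SDs over the 8 libraries, 0.15, 0.15 and 0.17 on the log2 scale. The largest belonged to Rps2 (1.08), Rpl17 (0.43), Rpl29 (0.37), Rps12 (0.35) and Rps24 (0.34), and the median of the 75 was 0.25 beside 0.24 for all tested genes.

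**Figure D3:**
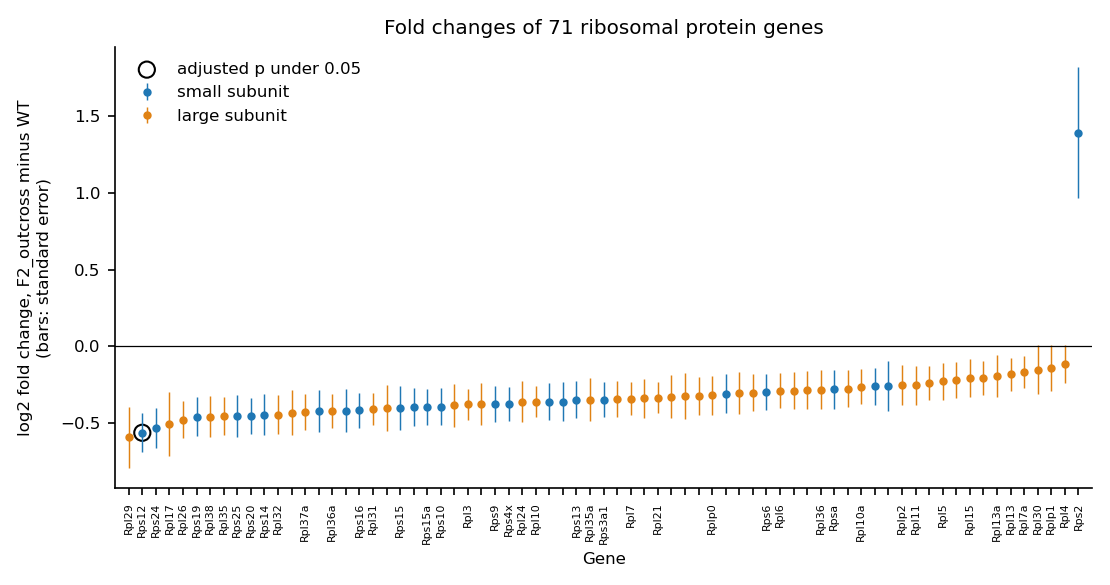
Log2 fold change (F2_outcross minus WT) with its standard error for 71 of the genes in rising order, with genes described in the text labelled, blue for the small and orange for the large subunit, with a ring around the gene past the adjusted threshold of 0.05. Values rise from -0.59 to -0.11 with genes of both subunits mixed, and Rps2 stands alone at 1.39.

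No gene of the stalk or of the 5S RNA particle, both parts of the large subunit, passed the test. The stalk is formed by Rplp0, its anchor on the large subunit, with Rplp1 and Rplp2. Rplp0 had 12823, 13389, 11566 and 10554 normalized reads in WT and 9978, 11546, 8916 and 8432 in F2_outcross (a log2 fold change of -0.32 ± 0.13, limma adjusted p = 0.182). For Rplp2 the log2 fold change was -0.25 ± 0.13 (limma adjusted p = 0.289). Rplp1 had 7902 normalized reads in F2_outcross replicate 2, close to its highest WT value of 7989. Rpl5 and Rpl11 carry the 5S RNA and, when ribosome assembly fails, bind Mdm2 and free p53. Rpl5 had 4464, 3099, 3954 and 4252 in WT and 3363, 3501, 3009 and 3491 in F2_outcross (a log2 fold change of -0.23 ± 0.12, limma adjusted p = 0.308), and for Rpl11 the log2 fold change was -0.25 ± 0.13 (adjusted p = 0.273). In both genes the groups overlapped, with WT replicate 2 the lowest WT library.

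Rps2, a protein at the mRNA entry of the small subunit (chromosome 17, 24718116 to 24721929), was the exception among the 75. It had 706, 709, 579 and 630 normalized reads in WT, and 2384, 3084, 2334 and 509 in F2_outcross. F2_outcross replicates 1 to 3 were above every WT library and F2_outcross replicate 4 was below every one. Over all 8 libraries the log2 fold change was 1.39 ± 0.43 and did not pass (limma adjusted p = 0.0964), and without F2_outcross replicate 4 it was 1.98 and passed (adjusted p = 4.49e-05). The table also holds lines for near-identical processed pseudogenes of Rps2, which carry no introns and can take reads of the gene. Rps2-ps13, on chromosome X (52898588 to 52899469), was 99.2% identical to the Rps2 transcript over 882 aligned bases, with 7 mismatches, and Rps2-ps10, on chromosome 18, 99.5% over 926.

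Rps2-ps13 had 2089, 2244, 1827 and 1836 normalized reads in WT, more than Rps2 itself, and 1103, 1452, 1068 and 1545 in F2_outcross, and it fell (log2 fold change -0.64 ± 0.14, limma adjusted p = 0.0313). That call too was lost unless the library left out was WT replicate 2 or F2_outcross replicate 4. Rps2-ps10 had 110, 175, 156 and 152 in WT and 77.3, 78.6, 81.5 and 156 in F2_outcross (adjusted p = 0.157). Both pseudogene lines were lowest in the 3 libraries where Rps2 was highest. Of the reads on these 3 lines, Rps2 held 24.3%, 22.7%, 22.6% and 24.1% in WT, 66.9%, 66.8% and 67.0% in F2_outcross replicates 1 to 3 and 23.0% in F2_outcross replicate 4. The share thus took 2 narrowly set values, which divided the F2_outcross group and not the groups from each other. The sum of the 3 lines was 2905, 3128, 2562 and 2617 in WT and 3564, 4614, 3484 and 2210 in F2_outcross. With Rps2 and all lines named as its pseudogenes added up, the log2 fold change was 0.26 and did not pass (limma adjusted p = 0.443). Single values of Rps2 are therefore uncertain.

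**Figure D4:**
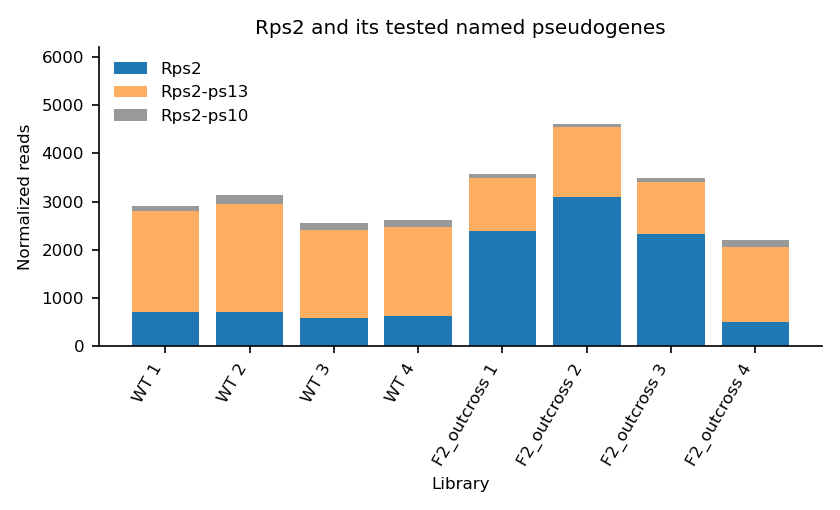
Normalized reads of Rps2 (blue), Rps2-ps13 (orange) and Rps2-ps10 (grey), stacked, in each of the 8 libraries. In F2_outcross replicates 1 to 3 Rps2 makes up about 67.0% of the stack, and in the 4 WT libraries and F2_outcross replicate 4 between 22.6% and 24.3%.

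Some genes had the same division of libraries as Rps2. By correlation of log2 values over the 8 libraries, a description with no test, the 10 tested genes most like it, leaving out predicted models and pseudogenes, were Them7 (r = 0.98), Tedc2 (0.98), Atp6v0c (0.96), Hmga1 (0.96), Gusb (0.95), Lmnb2, Spout1, Atxn1, Nat10 and Tspyl4. This list was drawn up after the values of Rps2 had been seen. Tedc2, Atp6v0c and Hmga1 lie on chromosome 17 as Rps2 does, at 24215054 to 24220851, 24163866 to 24169702 and 27556497 to 27563674. Atp6v0c, a subunit of the vacuolar proton pump, had 152, 175, 145 and 140 normalized reads in WT and 417, 410, 398 and 180 in F2_outcross, and it rose (log2 fold change 1.12 ± 0.24, limma adjusted p = 0.0313), with the call lost in 6 of the 8 fits that left out 1 library, all but those without WT replicate 2 or F2_outcross replicate 4. Tedc2 had 911, 720, 742 and 786 in WT and 1635, 1902, 1950 and 564 in F2_outcross and did not pass (adjusted p = 0.180). For both genes F2_outcross replicate 4 was the lowest of its group, as for Rps2. Of 57 other tested genes within 1 Mb of Rps2, 1 rose and 1 fell, where 1.60% of all tested genes were called higher and 1.06% lower. The 1 that rose was Atp6v0c itself, and the median log2 fold change of the 57 was -0.07. The other 3 members on chromosome 17 (Rps10, Rpl36 and Rpl10a) did not share the pattern, their log2 fold changes being -0.39, -0.28 and -0.26.

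The balance of the subunits differed little between the groups. The mean log2 level of the 29 small subunit genes minus that of the 46 large subunit genes, each gene set against its WT mean, was 0.018, -0.016, -0.005 and 0.003 in WT and -0.007, 0.047, -0.023 and -0.027 in F2_outcross, a mean difference between groups of -0.002. The SD was 0.014 in WT and 0.034 in F2_outcross, so the groups were not told apart by it. Rps2 entered that balance with its large positive value. With Rps2 left out, a choice made after its values were seen, the difference was -0.064, with libraries from -0.022 to 0.022 in WT and from -0.105 to -0.028 in F2_outcross, so that the 28 small subunit genes lay slightly further below WT than the 46 large ones in every F2_outcross library. With the reads of named pseudogenes added to their genes, Rps2 among them, it was -0.048. These differences are small beside the log2 difference of -0.32 between the groups in the mean of all members.

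The levels of the genes varied together from library to library. Over the 8 libraries, the median Pearson r between pairs of members was 0.84 over 2775 pairs, and 97.3% of pairs had a positive r, against 49.9% of pairs of all tested genes. It was 0.89 within the small subunit, 0.79 within the large subunit and 0.85 between the subunits. With each gene's group means removed, the median was 0.68, with 96.0% of pairs positive. It is a description over 8 libraries that share a depth and a scaling per library, and has no test. Against the mean of the other 74 members, 63 of the 75 had an r above 0.8, led by Rps10 (0.99), Rpl6 (0.99) and Rps20 (0.98). Rps2 was the only one with a negative r (-0.46), and Rpl30 (0.35), Rplp1 (0.57), Rpl15 (0.62) and Rpl4 (0.67) came next.

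The 10 genes outside the rule most like the members' mean over the 8 libraries included Tmem258 (r = 0.98), a small subunit of the oligosaccharyltransferase, Arpp19 (0.97), Psme2b (0.97), Bpgm (0.97), Dpm2 (0.97), Rack1 (0.97), Myl6 (0.96), Ly6a (0.96) and Eef1akmt1 (0.96). Tmem258 had 1252, 997, 986 and 1009 normalized reads in WT and 756, 949, 743 and 732 in F2_outcross, highest in WT replicate 1 as the members were (log2 fold change -0.42 ± 0.12, limma adjusted p = 0.0831). Of these 10 only Ly6a, a surface antigen of blood and endothelial cells, passed and fell (log2 fold change -0.91 ± 0.19, limma adjusted p = 0.0309), and its call was lost without WT replicate 1, 3 or 4 or F2_outcross replicate 1, 3 or 4.

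Transcript length went along with these results. Among other tested protein-coding genes the median log2 fold change went from -0.18 at up to 500 bases of exonic length (73 genes) through -0.14 (500 to 1000 bases, 709 genes), -0.10, -0.03 and 0.02 to 0.08 above 4000 bases. For other genes of up to 1000 bases, the median log2 level against WT was 0.12 in WT replicate 1, -0.22 and -0.23 in F2_outcross replicates 1 and 3, and elsewhere from -0.11 to -0.02. WT replicate 1, the highest library for the members, was thus also the highest for other short mRNAs, and F2_outcross replicate 3, the lowest for the members, was among the lowest. F2_outcross replicate 4, at -0.36 for the median of the members, had -0.11 for other short mRNAs. The 56 members of up to 1000 bases had a median log2 fold change of -0.36, beside -0.15 for the 782 other genes of that length. With length and GC trends removed per library, the median of the 75 was -0.22 and 72 of 75 values were negative. In that fit 2 of the 75 passed, where 545 of all 14390 tested genes did. The log2 fold change of Rps12 was -0.38 there (limma adjusted p = 0.0425). Rplp1 and Rpl30 then had positive values, 0.02 each.

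**Figure D5:**
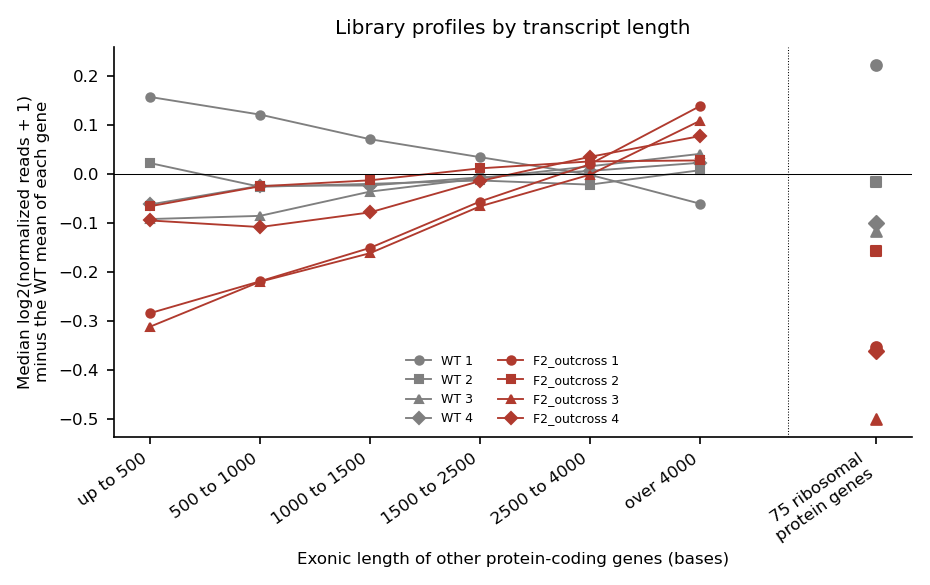
Median over other tested protein-coding genes of log2(normalized reads + 1) minus the gene's WT mean, in 6 classes of exonic length (bases), 1 line per library, grey for WT and red for F2_outcross, with the median of the 75 ribosomal protein genes at the right. WT replicate 1 runs from 0.16 to -0.06 along the classes and F2_outcross replicates 1 and 3 run from -0.28 and -0.31 to 0.14 and 0.11.

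Several markers of immune cells fell in F2_outcross, where 1.06% of all tested genes were called lower and 1.60% higher. The sums of these marker lists followed the members' library order only in part. Of 8 B cell markers, all with negative log2 fold changes, Ighm and Ighd fell, and the sum of all 8 was 908, 418, 573 and 499 normalized reads in WT and 270, 195, 182 and 394 in F2_outcross, with the highest value in WT replicate 1. Of 9 T and NK cell markers tested, Gzma, Nkg7 and Il2rb fell, and the list's sum ran from 371 to 822 in WT and from 225 to 310 in F2_outcross. Of 5 neutrophil markers tested, S100a8 fell, with sums of 192 to 643 and 112 to 185. None of 9 Kupffer cell markers passed, all had negative log2 fold changes (median -0.58), and their sum was again highest in WT replicate 1, at 40883. WT replicate 2, which came next to WT replicate 1 in the members' mean, had the lowest WT sum of the B, T and NK, neutrophil and Kupffer cell lists. F2_outcross replicate 3, the lowest library for the members, had the highest Kupffer sum of its group, at 22100.1, and F2_outcross replicate 2, the highest of its group for the members, had the lowest T and NK and neutrophil sums. None of 5 erythroid markers passed either, with a median of -0.90. Of the 5 bile duct markers, 4 were tested and Spp1 rose, and 0 of 7 hepatocyte, 0 of 7 sinusoidal endothelial and 0 of 6 stellate cell markers passed, with medians of -0.11, 0.06 and -0.06. The calls of Ighm, Ighd, Gzma, Nkg7 and S100a8 were each lost in 6 of the 8 fits that left out 1 library, that of Il2rb in 7 and that of Spp1 in 3, and all of them passed without WT replicate 2. Their log2 fold changes kept their sign in these fits, from -1.32 to -0.92 for Ighm, from -1.57 to -1.14 for Gzma and from -1.99 to -1.36 for S100a8. With voom on the recovered reads 0 of 9 T and NK cell and 0 of 5 neutrophil markers passed, and Ighd lost its call too. No marker list had a gene at 0 in every library. Messenger RNAs of the mitochondrial genome summed to 1759603 normalized reads in WT replicate 2 and 1101848 to 1250365 in the other 7 libraries, with 0 of 13 past the threshold. The nuclear RNA Malat1 had 11736 and 11220 in F2_outcross replicates 1 and 3, and 2021 to 5427 in the other 6. The part of any of these in the ribosomal protein values was not tested.

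Other lists tied to the ribosome differed in direction. Fau, which encodes a ribosomal protein fused to a ubiquitin-like sequence, and Rack1, a scaffold on the small subunit, did not pass, with log2 fold changes of -0.30 and -0.29. None of 6 tested ribosomal protein paralogs passed (median -0.34), and those with the smallest p were Rpl36al (-0.47), Rps27rt (-0.46) and Rps27l (-0.39), the last a target of p53. Of 80 tested lines named as pseudogenes of the 75 members, 77 had a negative value, where 51.1% of all tested genes did, and the median was -0.41. Such lines can take reads of the genes they copy, as described for Rps2-ps13, so they are not a set separate from the members. Rps24-ps3, Rps2-ps13 and Rpl38-ps2 fell, 3 of the 80, where 1.06% of all tested genes were called lower. Of these Rps24-ps3 (log2 fold change -0.83 ± 0.13, limma adjusted p = 0.00733) passed in all 8 fits that left out 1 library, while Rpl38-ps2 passed only without WT replicate 2. Of 16 other mRNAs with a TOP motif, mostly translation factors, 0 passed and 13 had a negative value (median -0.22), led by Tpt1 (-0.37 ± 0.13, limma adjusted p = 0.126), Eef1d (-0.30) and Eef1b2 (-0.29).

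Of 60 tested genes for ribosome assembly in the nucleolus, 4 rose, 0 fell and 56 did not pass, where 1.60% of all tested genes were called higher, and the median log2 fold change was 0.08. Nolc1, a nucleolar scaffold of small nucleolar ribonucleoproteins, had 682, 764, 703 and 665 normalized reads in WT and 1062, 1180, 1147 and 961 in F2_outcross (a log2 fold change of 0.63 ± 0.10, limma adjusted p = 0.0107), and the call held whichever of the 8 libraries was left out. Tsr1, a factor in maturation of the small subunit, had 523, 485, 560 and 546 in WT and 755, 811, 781 and 750 in F2_outcross (0.55 ± 0.10, adjusted p = 0.0146) and lost its call without F2_outcross replicate 2, where the adjusted p was 0.0503. In both genes each F2_outcross library lay above every WT library. Wdr43 (0.48 ± 0.10, adjusted p = 0.0334), of the early small subunit precursor, and Nop2 (0.48 ± 0.11, adjusted p = 0.0433), a methyltransferase of the large subunit RNA, rose too. Wdr43 lost its call unless WT replicate 2 or F2_outcross replicate 3 was left out, and Nop2 unless WT replicate 2 was.

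Among 10 tested genes of RNA polymerase I, which transcribes the ribosomal RNA precursor, 1 rose, where 1.60% of all tested genes were called higher. Polr1a, its largest subunit, had 530, 643, 549 and 488 normalized reads in WT and 806, 784, 806 and 682 in F2_outcross (a log2 fold change of 0.48 ± 0.11, limma adjusted p = 0.0447), and among fits that left out 1 library the call held only without WT replicate 2 or F2_outcross replicate 4. It was lost as well in 5 of 13 other alternatives, with no filter on low values, with upper quartile, quantile or total reads scaling and with voom. Rrn3, its initiation factor, had 0.26 ± 0.10 (adjusted p = 0.159) and Taf1b -0.28 ± 0.13 (adjusted p = 0.252). Of 20 genes that control ribosomal protein synthesis with growth signals, 0 passed, with a median of 0.08. Those with the smallest p were Larp1, which holds TOP mRNAs back (0.30 ± 0.10, adjusted p = 0.111), Deptor, an inhibitor of mTOR (0.30 ± 0.11, adjusted p = 0.160), and Mdm2 (0.30 ± 0.12, adjusted p = 0.184).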

How the data were processed

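Per the labels' protocols, total RNA of 8 mouse livers was prepared with a lipid tissue kit and a directional library kit. Named in the submitters' processing notes, without versions, are cutadapt, HISAT2, DESeq2 and the build GRCm38. How reads were counted, with which strand setting and gene models, is not given in the sources used here, and near-identical copies or overlapping genes may share reads. The table that the authors deposited holds log2 values of counts divided by size factors, with 0.1 added before the logarithm. The floor of the values and their steps showed this: 100% lay within 0.001 of a whole multiple of the worth of 1 read, 0.779 to 1.04 normalized reads. Of 25069 lines, 395 without a symbol (0.611% to 1.22% of reads) were left out. No pair of libraries agreed within sampling noise.

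Values were returned to normalized reads and analysed as log2(value + 1) with limma 3.58.1 in R 4.3.3 (two-sided, trend, Benjamini-Hochberg, threshold 0.05) over the 14390 genes that reached 10 normalized reads in 4 or more libraries. Fold changes are on that scale, which understates low genes, with moderated SEs. The test was checked on simulated data in which each gene varied on its own, so that check does not cover genes that vary together. The plan had assumed linear normalized values. Levels are per kb of the principal GENCODE M21 transcript, windows are from RefSeq (GRCm38.p6), and copies were aligned with BLAST 2.17.0. Members, gene lists and the rule for named genes were chosen with earlier results of these data known. The rule took members past the threshold or with groups that did not overlap, extremes of fold change, level and spread, the stalk and 5S RNA particle, the 3 smallest p of each other list and the 10 genes most like the members' mean. Some genes it selects are given as counts only or are not reported here. Alternatives were other pseudocounts, filters and scalings, robust moderation, library weights, voom, removal of length and GC trends, the threshold 0.10, and each library left out in turn. Sums with named pseudogenes and union exonic lengths were added after the data were seen. Counting error only is covered by read depth.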

Additional observations from a re-analysis of the deposited data

Results flagged for a closer look

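In 50 groups of 4 values examined (named genes and summaries of the members), 4 held a library whose gap to the next library exceeded Dixon's critical share of the group's range. Chance flags about 1 group in 20. Rps12 was highest in WT replicate 1, at 2565 normalized reads against 1940 for the next WT library, and in F2_outcross replicate 2, at 1676 against 1314. Rps19 was highest in F2_outcross replicate 2, at 2953 against 2428. Rpl30 was highest in F2_outcross replicate 1, at 1307 against 829.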

How the results depend on the processing

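The median log2 fold change of the 75 genes was negative in all 21 alternatives, from -0.41 without F2_outcross replicate 2 to -0.22 with length and GC trends removed, and moved by less than the SD between libraries in each. The number of members past the threshold did change: 9 with upper quartile scaling, 15 with quantile scaling, 2 with total reads scaling, 28 with library weights, 2 with length and GC trends removed, 26 at a threshold of 0.10, 2 with named pseudogenes added, and from 0 to 12 when 1 library was left out. Over all 14390 genes 383 passed, 1709 with library weights, 248 with voom on the recovered reads, 1073 at a threshold of 0.10 and from 111 to 1073 with 1 library left out. With upper quartile, quantile and total reads scaling 406, 417 and 307 of all genes passed, and with length and GC trends removed 545. Small minus large subunit moved to -0.048 with named pseudogenes added and ranged from -0.019 to 0.006 with 1 library left out. The median residual correlation moved to 0.45 with length and GC trends removed and ranged from 0.56 to 0.82 with 1 library left out. Ribosome assembly genes called higher were 7 at a threshold of 0.10, where 543 of all 14390 genes were called higher. With 1 library left out they were from 1 to 4, where 71 to 497 of all genes were called higher. Apart from fits that left out a library, the call of Il2rb was lost in 5 alternatives, that of Nkg7 in 4, that of Ighd in 2, and those of Nop2, Gzma, S100a8, Atp6v0c, Ly6a and Rpl38-ps2 in 1 each. Rplp1 and Rpl30 turned positive, at 0.022 and 0.017, with length and GC trends removed. The cause of these changes was not tested. No paired analysis was possible because the labels name no litter or pairing, and the replicate numbers used here mark no pairs.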
